A study of Mus musculus with 9 samples.

Results

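The genes considered here were 10 mouse genes that encode channels, transporters and a transcription factor of airway ion transport and of ionocytes, the rare epithelial cells specialized for moving ions. They were looked up by name in a table of 34638 gene entries, and 9 of them were followed in the lungs of 9 wild-type C57BL/6 mice. The 10 were the pendrin gene *Slc26a4*, the anion channel gene *Slc26a9*, the sodium-potassium-chloride cotransporter gene *Slc12a2*, the chloride channel genes *Cftr* and *Ano1*, the epithelial sodium channel subunit genes *Scnn1a*, *Scnn1b* and *Scnn1g*, the ionocyte transcription factor gene *Foxi1*, and the proton-potassium pump gene *Atp12a*. *Atp12a* was not analysed here. Of the other 9, 8 had a mean of at least 0.5 FPKM (fragment counts scaled for gene length and sequencing depth) over the 9 mice and entered the tests, which covered 16831 genes, and *Foxi1* did not reach that level.

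Lung RNA was sequenced from 3 mice in each of 3 groups. Control mice were challenged with PBS, and IL-33 mice received 0.5 µg of recombinant mouse IL-33, an alarmin released by damaged epithelium, into the trachea daily from day 0 to day 3. IL-33+LM8 mice had the same challenges after intraperitoneal LM8 at 10 mg/kg, a compound that the series title and design imply is an inhibitor of MyD88, the adaptor through which the IL-33 receptor signals. The methods describe the control and IL-33 mice as females of 6 to 8 weeks whose lungs were taken 1 day after the last challenge. For the IL-33+LM8 mice neither the age, the sex nor the time of sampling was given in the sources used here, nor was it stated whether the other groups were injected with the solvent of LM8. Each library came from whole lung tissue, and between 53877663 and 90607218 reads per mouse were counted on genes.

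The thin liquid layer on the airway surface is set by absorption of sodium and secretion of anions. Sodium enters epithelial cells through the epithelial sodium channel, built from the products of *Scnn1a*, *Scnn1b* and *Scnn1g*, while chloride is loaded at the base of the cell by the cotransporter encoded by *Slc12a2* and leaves through channels such as those encoded by *Cftr*, *Ano1* and *Slc26a9*. Pendrin exchanges chloride for bicarbonate, thiocyanate or iodide at the surface of the cell, and is known as a gene induced by type 2 cytokines. In the distal lung the sodium channel is made by alveolar cells as well as by club cells, so whole lung RNA does not measure the airways alone.

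In IL-33 lungs pendrin mRNA was about 142-fold higher than in control lungs, the transcripts of all 3 sodium channel subunits were lower, and those of *Slc26a9*, *Cftr* and *Slc12a2* were lower too. *Ano1* was slightly higher. In bulk lung RNA, fewer cells of a type and less RNA per cell cannot be told apart. All 8 tested genes passed an adjusted p of 0.05 in IL-33 mice against control mice, 2 upwards and 6 downwards, where 27.4% of all genes tested rose and 27.2% fell by the same rule (quasi-likelihood F test of edgeR, p adjusted over all genes tested by Benjamini-Hochberg). Of the 8, 3 also changed at least 2-fold, namely *Slc26a4*, *Scnn1b* and *Scnn1g*, against 17.0% of all genes tested. For each of the 8 genes the FPKM values of the IL-33 and control mice did not overlap, which was also so for 63.4% of all genes tested. With 3 mice against 3, an exact two-sided permutation test cannot give a p under 0.1, which was its value for each of the 8.

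**Figure D1:**
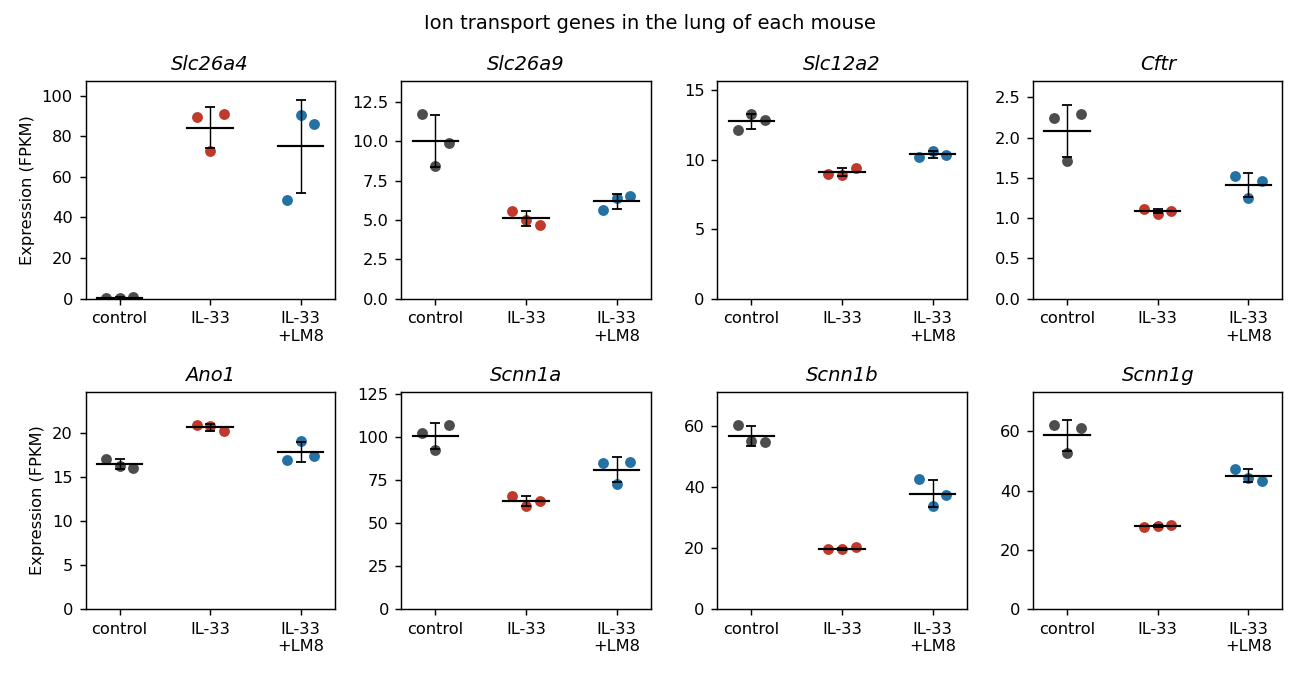
Expression in FPKM (vertical axes, each starting at 0) of the 8 tested genes in the lungs of control, IL-33 and IL-33+LM8 mice; points are single mice, long horizontal lines are means and bars are the SD of 3 mice. *Slc26a4* lies between 0.521 and 0.716 FPKM in control mice and at or above 48.7 FPKM in every mouse given IL-33, while the 3 sodium channel subunits are lowest in IL-33 mice and lie between both other groups in IL-33+LM8 mice.

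*Slc26a4* (ENSMUSG00000020651) lies on the minus strand of chromosome 12, between positions 31569826 and 31609968 as the table gives them, without a genome build. Its expression was 0.521, 0.541 and 0.716 FPKM in control replicates 1 to 3, resting on 106 to 171 counts per mouse. In IL-33 replicates 1 to 3 it was 89.4, 72.6 and 90.8 FPKM, with 14145 to 19005 counts per mouse, and in IL-33+LM8 replicates 1 to 3 it was 48.7, 90.4 and 85.8 FPKM. Every mouse given IL-33, with or without LM8, was thus far above every control mouse, and IL-33+LM8 replicate 1 was the lowest of the 6. The group means were 0.593 ± 0.107 FPKM (SD, n = 3) in the control group, 84.3 ± 10.1 FPKM (SD, n = 3) in the IL-33 group and 75.0 ± 22.9 FPKM (SD, n = 3) in the IL-33+LM8 group. The log2 fold change of IL-33 against control was 7.14 (standard error 0.16, adjusted p = 5.1e-07 by edgeR's quasi-likelihood test), which placed *Slc26a4* at rank 28 from the top of 16831 genes, or 15 of the 16794 that were above the floor of 3 counts in control mice. In the order of levels, the gene moved from place 8 of 9 in control lungs to place 1 in IL-33 lungs, above *Scnn1a*. Fits that each left out a single mouse gave log2 fold changes between 7.06 and 7.30.

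No change of the pendrin transcript with LM8 was detected. The log2 fold change of IL-33+LM8 against IL-33 was -0.17 (standard error 0.22, adjusted p = 0.64 by edgeR's quasi-likelihood test), and the groups overlapped. Its sign depended on IL-33+LM8 replicate 1, without which it was 0.069 (adjusted p = 0.69 by the same test). Against control mice, *Slc26a4* rose by 6.99 on the log2 scale in IL-33+LM8 mice (standard error 0.30, adjusted p = 2.4e-05 by edgeR's quasi-likelihood test), which is 127-fold by mean FPKM.

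The sequence upstream of *Slc26a4* is shown because no other gene of the set rose by as much, and those upstream of *Scnn1g* and *Scnn1b* because both genes fell at least 2-fold and lie on the plus strand of chromosome 7 with 130559 bases between their starts. Each is the RefSeq window from 250 bases before to 50 bases after a gene's start, 5′ to 3′ on the gene's strand, in build GRCm38.p6. The windows lie at chr12:31559935-31560234 (minus strand), chr7:121734229-121734528 (plus strand) and chr7:121864788-121865087 (plus strand), and they are not on the coordinate system of the deposited table. Capitals mark every match, on either strand, to any of the 8 motifs named after the sequences, and the *Scnn1g* window holds none.
*Slc26a4*: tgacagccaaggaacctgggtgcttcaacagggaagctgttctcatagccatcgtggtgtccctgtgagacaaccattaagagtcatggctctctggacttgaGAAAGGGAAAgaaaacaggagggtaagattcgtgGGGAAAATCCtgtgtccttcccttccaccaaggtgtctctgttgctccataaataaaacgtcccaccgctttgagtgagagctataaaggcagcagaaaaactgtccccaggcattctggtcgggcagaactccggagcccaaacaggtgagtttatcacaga
*Scnn1g*: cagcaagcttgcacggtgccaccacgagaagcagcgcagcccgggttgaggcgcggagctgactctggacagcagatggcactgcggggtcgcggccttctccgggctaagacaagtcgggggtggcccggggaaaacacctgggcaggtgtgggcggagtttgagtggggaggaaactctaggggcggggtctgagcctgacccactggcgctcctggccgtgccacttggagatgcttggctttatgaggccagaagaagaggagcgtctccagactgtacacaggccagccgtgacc
*Scnn1b*: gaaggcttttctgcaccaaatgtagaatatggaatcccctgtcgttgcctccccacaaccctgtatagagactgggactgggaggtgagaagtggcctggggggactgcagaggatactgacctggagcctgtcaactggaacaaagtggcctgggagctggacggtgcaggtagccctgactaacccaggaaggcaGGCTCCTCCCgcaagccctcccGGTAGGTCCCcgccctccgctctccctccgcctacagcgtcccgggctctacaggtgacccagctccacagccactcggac
The GC content was 50% in the *Slc26a4* window, 64.7% in the *Scnn1g* window and 61.7% in the *Scnn1b* window. Of the 10 genes, 7 had a RefSeq window, and 8 motifs were searched for on both strands in 32851 windows of the same length. The STAT6 motif, TTC and GAA with 4 bases between them, was in 6.95% of all windows and in none of the 7. The same letters with 3 bases between them were in 8.30%, the forkhead words TGTTTAC and TGTTTGC in 3.65% and 5.07%, the AP-1 words TGACTCA or TGAGTCA in 5.2% and the steroid receptor motif, ACA and TGT with 3 bases between them, in 6.85% of all windows, and none of these was in any of the 7. GGGA and CC with 4 bases between them, which resembles an NF-kB site, was in 20.7% of all windows and in those of *Slc26a4*, *Scnn1b*, *Ano1* and *Cftr*, 4 of the 7. GAAA and GAAA with 2 bases between them, which resembles an interferon response element, was in 3.44% of all windows and in those of *Slc26a4* and *Foxi1*. Only the STAT6 motif and the word TGTTTAC were planned, and the other motifs were chosen with the results known, so that a match is a description of the letters in these windows.

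The 3 subunits of the epithelial sodium channel fell together in IL-33 lungs, and *Scnn1b* fell most. In the coordinates that the table gives, *Scnn1a* (ENSMUSG00000030340) spans 125297622 to 125321896 of chromosome 6, *Scnn1b* (ENSMUSG00000030873) spans 121464261 to 121517737 of chromosome 7 and *Scnn1g* (ENSMUSG00000000216) spans 121333702 to 121367698 of chromosome 7, all on the plus strand. *Scnn1a*, which encodes the subunit needed for a conducting channel, was expressed at 102, 92.5 and 107 FPKM in control mice. It was at 66.0, 60.2 and 62.7 FPKM in IL-33 mice and at 84.8, 72.8 and 85.6 FPKM in IL-33+LM8 mice. The 3 groups of mice did not overlap, and *Scnn1a* changed by -0.68 on the log2 scale with IL-33 (standard error 0.07, adjusted p = 0.00014 by edgeR's quasi-likelihood test).

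*Scnn1b*, which encodes an accessory subunit that raises the channel's current, was at 60.3, 54.9 and 54.6 FPKM in control mice. It was at 19.6, 19.7 and 20.3 FPKM in IL-33 mice and at 42.5, 33.8 and 37.3 FPKM in IL-33+LM8 mice. The control mean of 56.6 ± 3.2 FPKM (SD, n = 3) was 2.85 times the IL-33 mean of 19.9 ± 0.34 FPKM (SD, n = 3), and the log2 fold change was -1.51 with a standard error of 0.06 (adjusted p = 2.3e-06 by edgeR's quasi-likelihood test). No IL-33+LM8 mouse reached the lowest control mouse, and none was as low as the highest IL-33 mouse.

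*Scnn1g*, which encodes the other accessory subunit, was at 62.1, 52.6 and 61.0 FPKM in control mice. It was at 27.7, 28.1 and 28.6 FPKM in IL-33 mice and at 47.4, 44.4 and 43.2 FPKM in IL-33+LM8 mice. Here too the 3 groups stood apart, and the log2 fold change of IL-33 against control was -1.06 (standard error 0.07, adjusted p = 2.3e-05 by edgeR's quasi-likelihood test).

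On the scale of FPKM, which corrects for gene length, the 3 subunit transcripts summed to 216 ± 13.6 FPKM in control lungs, 111 ± 2.7 FPKM in IL-33 lungs and 164 ± 12.0 FPKM in IL-33+LM8 lungs (SD, n = 3 in each group). The make-up of that sum changed as well as its size. *Scnn1b* contributed 26.3 ± 1.6% (SD, n = 3) of it in control lungs, 17.9 ± 0.51% (SD, n = 3) in IL-33 lungs and 23.1 ± 1.1% (SD, n = 3) in IL-33+LM8 lungs, and these 3 groups of mice did not overlap. The share of *Scnn1a* moved the other way, from 46.6 ± 1.3% (SD, n = 3) in control to 56.7 ± 1.3% (SD, n = 3) in IL-33 and 49.4 ± 1.8% (SD, n = 3) in IL-33+LM8 lungs. That of *Scnn1g* lay between 24.4 and 29.4% in all 9 mice.

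**Figure D2:**
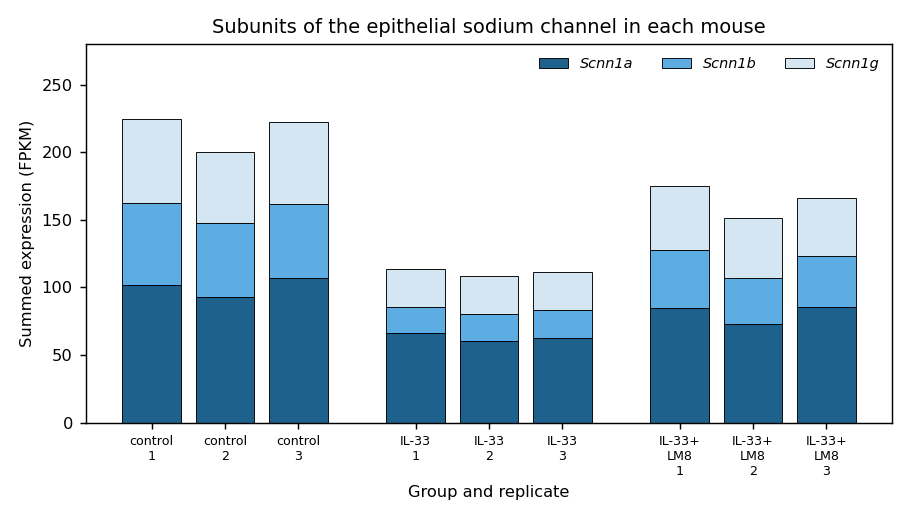
Summed expression in FPKM (vertical axis) of *Scnn1a*, *Scnn1b* and *Scnn1g* in each mouse, 1 stacked bar per mouse, by group and replicate (horizontal axis). The bars reach 200.1 to 224 FPKM in control, 108 to 113 FPKM in IL-33 and 151 to 175 FPKM in IL-33+LM8 mice, and the *Scnn1b* part is smallest in IL-33 mice.

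The anion channel genes did not move as a block. *Slc26a9* (ENSMUSG00000042268) lies on chromosome 1 from 131671760 to 131699242, *Cftr* (ENSMUSG00000041301) on chromosome 6 from 18170686 to 18322766 and *Ano1* (ENSMUSG00000031075) on chromosome 7 from 144142286 to 144292329, in the same coordinates. *Slc26a9*, which encodes a chloride channel of airway and gastric epithelium, was at 11.7, 8.45 and 9.92 FPKM in control mice. It was at 5.59, 5.01 and 4.69 FPKM in IL-33 mice and at 5.65, 6.40 and 6.51 FPKM in IL-33+LM8 mice. *Slc26a9*, of the same gene family as *Slc26a4*, was lower in every IL-33 mouse than in any control mouse, and its log2 fold change was -0.98 with a standard error of 0.13 (adjusted p = 0.00059 by edgeR's quasi-likelihood test). Without control replicate 2, the lowest of the control mice, it was -1.09.

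*Cftr*, the gene mutated in cystic fibrosis, was at 2.24, 1.71 and 2.29 FPKM in control mice. It was at 1.11, 1.06 and 1.09 FPKM in IL-33 mice and at 1.52, 1.25 and 1.47 FPKM in IL-33+LM8 mice. The lowest control mouse was still above the highest IL-33+LM8 mouse, and the log2 fold change of IL-33 against control was -0.94 (standard error 0.14, adjusted p = 0.00088 by edgeR's quasi-likelihood test), or -1.07 without control replicate 2. In the GENCODE annotation 129 of the 7765 exonic bases of *Cftr* are shared with an antisense gene, and whether reads were counted by strand is not given in the sources used here.

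*Ano1*, which encodes a calcium-activated chloride channel also made by smooth muscle, was at 17.1, 16.2 and 16.1 FPKM in control mice. It was at 20.9, 20.8 and 20.2 FPKM in IL-33 mice and at 17.0, 19.1 and 17.3 FPKM in IL-33+LM8 mice. It was the only tested gene of the set besides *Slc26a4* that rose with IL-33, by 0.32 on the log2 scale (standard error 0.05, adjusted p = 0.00092 by edgeR's quasi-likelihood test), and every IL-33 mouse was above every other mouse. The smooth muscle list (*Acta2*, *Myh11*, *Cnn1* and *Des*) summed to 147 to 169 FPKM in control, 222 to 231 FPKM in IL-33 and 251 to 285 FPKM in IL-33+LM8 mice. *Acta2* made up 57.6% of that sum in control lungs. Without it the other 3 genes summed to 99.7% of control in IL-33 and 127% in IL-33+LM8 lungs, but they did not move alike. *Myh11* averaged 18.1, 23.3 and 30.0 FPKM in control, IL-33 and IL-33+LM8 lungs. It rose with IL-33 by 0.36 on the log2 scale (adjusted p = 0.0012 by edgeR's quasi-likelihood test). *Cnn1* averaged 13.6, 12.4 and 15.4 FPKM and *Des* 34.8, 30.5 and 39.1 FPKM, and neither passed that test with IL-33. The part of smooth muscle in the *Ano1* result was not tested.

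*Slc12a2*, which encodes the cotransporter that loads chloride, was at 12.1, 13.3 and 12.8 FPKM in control mice. It was at 8.95, 8.91 and 9.42 FPKM in IL-33 mice and at 10.2, 10.6 and 10.4 FPKM in IL-33+LM8 mice. The spread within each group was small and the groups did not overlap, and the log2 fold change of IL-33 against control was -0.49 (standard error 0.05, adjusted p = 0.00015 by edgeR's quasi-likelihood test).

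In the order of FPKM levels, *Scnn1a* was highest in control lungs, followed by *Scnn1g* and *Scnn1b*, whose mice overlapped, and then by *Ano1*, *Slc12a2*, *Slc26a9*, *Cftr*, *Slc26a4* and *Foxi1*, each above the next in all mice. In IL-33 lungs the order was *Slc26a4*, *Scnn1a*, *Scnn1g*, *Ano1*, *Scnn1b*, *Slc12a2*, *Slc26a9*, *Cftr* and *Foxi1*, and the neighbours whose mice overlapped were *Ano1* and *Scnn1b*. In IL-33+LM8 lungs *Scnn1a* was again at the top by its mean, but its mice overlapped with those of *Slc26a4* in second place.

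*Foxi1*, the gene that specifies ionocytes, had a count of 0 in 8 of 9 mice and 4 counts, or 0.0247 FPKM, in IL-33 replicate 1. A count of 0 allows up to 3 counts in a library, so no comparison between groups was possible. Of the other ionocyte markers, *Ascl3* and *Bsnd* were also at the edge of detection. *Ascl3*, another ionocyte transcription factor, lay between 0.220 and 0.363 FPKM in control mice, on 12 to 17 counts. Of the 3 IL-33 mice 2 had no count, while replicate 1 had 20 counts, or 0.415 FPKM, above every control mouse. The IL-33+LM8 mice lay between 0.229 and 0.730 FPKM, on 11 to 34 counts. *Bsnd*, the chloride channel subunit barttin, had 7 counts in IL-33 replicate 2 and none in the other mice. *Asgr1*, a receptor far better known from liver, was the only marker of the list that could be tested, at 1.79 FPKM on average in control and 0.779 FPKM in IL-33 lungs, and its log2 fold change was -1.20 with a standard error of 0.57 (adjusted p = 0.11 by edgeR's quasi-likelihood test). The 4 ionocyte markers summed to 1.52 to 2.57 FPKM in control, 0.655 to 1.31 FPKM in IL-33 and 0.565 to 2.35 FPKM in IL-33+LM8 mice, most of it *Asgr1*.

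The marker lists of several cell types that make these transporters moved with IL-33 too. Among all genes tested 27.4% rose and 27.2% fell, and 10.8% and 6.24% did so at least 2-fold. The club cell list fell at 3 of 4 genes, all at least 2-fold, with a median log2 fold change of -1.93. It summed to 21753 to 23796 FPKM in control, 8544 to 9607 FPKM in IL-33 and 17196 to 18623 FPKM in IL-33+LM8 mice. The alveolar type 1 list fell at 3 of 4 genes (median -1.12 on the log2 scale) and the alveolar type 2 list at 3 of 4 (median -0.61). The remaining alveolar type 1 gene, *Pdpn*, rose by 0.29 on the log2 scale (adjusted p = 0.0021 by edgeR's quasi-likelihood test). It averaged 47.4, 58.0 and 58.9 FPKM in control, IL-33 and IL-33+LM8 lungs. Relative to the control mean, the 3 sodium channel subunits summed to 51.5% in IL-33 and 76.0% in IL-33+LM8 lungs, beside 52.4% and 79.9% for the alveolar type 1 list, 47.6% and 83.1% for the alveolar type 2 list, and 39.5% and 77.4% for the club cell list. These sums rest largely on single abundant genes, since *Scgb1a1* made up 93.1% of the club cell sum, *Sftpc* 88.7% of the alveolar type 2 sum and *Ager* 72.6% of the alveolar type 1 sum in control lungs. Without them the sums were at 20.5% and 45.7% of control for the club cell list, 65.9% and 80.8% for the alveolar type 2 list and 52.1% and 84.7% for the alveolar type 1 list, in IL-33 and IL-33+LM8 lungs. The club cell genes *Scgb3a2* and *Cyp2f2* were still lower with LM8 than in control lungs, with log2 fold changes of -1.66 and -1.24 (adjusted p = 2.4e-05 and 0.00097 by edgeR's quasi-likelihood test). The 4 tested genes of the goblet cell list rose, all at least 2-fold (median 2.82 on the log2 scale), and the list summed to 6.44 to 9.15 FPKM in control, 51.5 to 53.1 FPKM in IL-33 and 42.1 to 63.5 FPKM in IL-33+LM8 mice. Within that sum the genes differed with LM8. *Muc5ac* averaged 12.5 FPKM in IL-33 and 6.09 FPKM in IL-33+LM8 lungs, and was the 1 gene of the 4 that fell relative to IL-33 alone. *Agr2* averaged 16.3 ± 3.1 and 23.5 ± 11.8 FPKM (SD, n = 3 in each group), and none of the 4 rose at an adjusted p under 0.05. The summed level of the general epithelial list (*Epcam*, *Cdh1*, *Krt8*, *Krt18* and *Krt19*) was 292 to 304 FPKM in control and 288 to 304 FPKM in IL-33 mice, and 259 to 274 FPKM in IL-33+LM8 mice. The part of these cell types in the changes of the transporters was not tested.

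**Figure D3:**
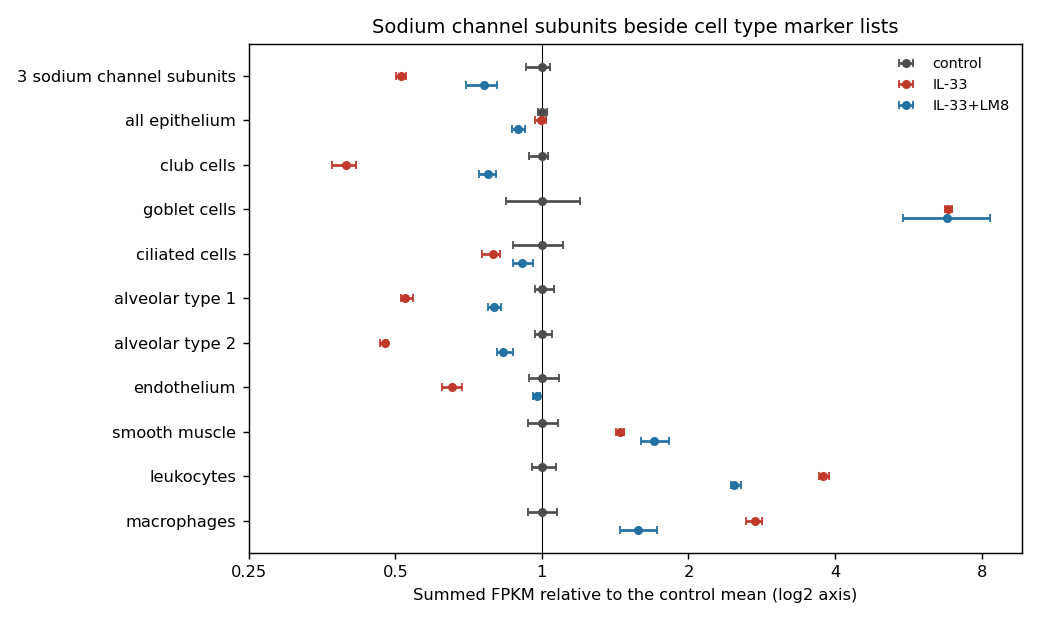
Summed FPKM of the 3 sodium channel subunits and of 10 cell type marker lists, relative to the mean of the control mice (horizontal axis, log2 scale), by group; points are means of 3 mice and bars run from the lowest to the highest mouse. The sodium channel sum lies at 51.5% of control in IL-33 and at 76.0% in IL-33+LM8 lungs, beside the alveolar type 1 list at 52.4% and 79.9%, while the general epithelial list is at 99.7% and 89.4%.

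As a share of the general epithelial list in the same mouse, *Scnn1b* was 19.1 ± 1.2% (SD, n = 3) in control, 6.71 ± 0.12% (SD, n = 3) in IL-33 and 14.3 ± 1.9% (SD, n = 3) in IL-33+LM8 lungs. On the same scale *Cftr* was 0.701 ± 0.122% (SD, n = 3), 0.366 ± 0.0071% (SD, n = 3) and 0.533 ± 0.068% (SD, n = 3) in these groups. *Slc26a4* was 0.20 ± 0.039% (SD, n = 3), 28.4 ± 2.8% (SD, n = 3) and 28.2 ± 8.5% (SD, n = 3). Set against this epithelial total, the directions were those seen in FPKM.

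With LM8 the changes of the sodium channel subunits were smaller, while no difference was detected for pendrin. Between IL-33+LM8 and IL-33 mice, 5 of the 8 genes rose and 1 fell at an adjusted p under 0.05, where 12.6% of all genes tested rose and 13.9% fell (quasi-likelihood F test of edgeR, adjusted likewise). None of the 8 changed at least 2-fold, against 5.39% of all genes tested. That count was also 0 with DESeq2 and limma, while 7 of the 8 had an unadjusted p under 0.05 in edgeR. In 7 of the 8 the mice of both groups did not overlap, which held for 43.2% of all genes tested.

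*Scnn1b* rose most with LM8, by 0.93 on the log2 scale (standard error 0.08, adjusted p = 0.00033 by edgeR's quasi-likelihood test), and its mean FPKM was 1.90 times that of IL-33 mice. *Scnn1g* rose by 0.68 (standard error 0.05, adjusted p = 0.0002 by the same edgeR test) and *Scnn1a* by 0.36 (standard error 0.07, adjusted p = 0.0095 by the same edgeR test). These 3 kept an adjusted p under 0.05 when any single mouse was left out, but without the library with most counts in each group that of *Scnn1a* was 0.080 by edgeR. *Cftr* rose by 0.38 (standard error 0.12, adjusted p = 0.047), *Slc12a2* rose by 0.19 (standard error 0.05, adjusted p = 0.030) and *Ano1* fell by 0.21 (standard error 0.06, adjusted p = 0.038), all by edgeR's quasi-likelihood test. These were near the threshold, and the adjusted p of edgeR reached 0.14 for *Cftr*, 0.097 for *Slc12a2* and 0.14 for *Ano1* when single mice were left out. They stayed under 0.05 in 1 of 6, 2 of 6 and 1 of 6 such fits. For *Slc26a9* the log2 fold change was 0.28 with a standard error of 0.09 (adjusted p = 0.061 by edgeR's quasi-likelihood test), although the 3 IL-33+LM8 mice were above the 3 IL-33 mice.

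**Figure D4:**
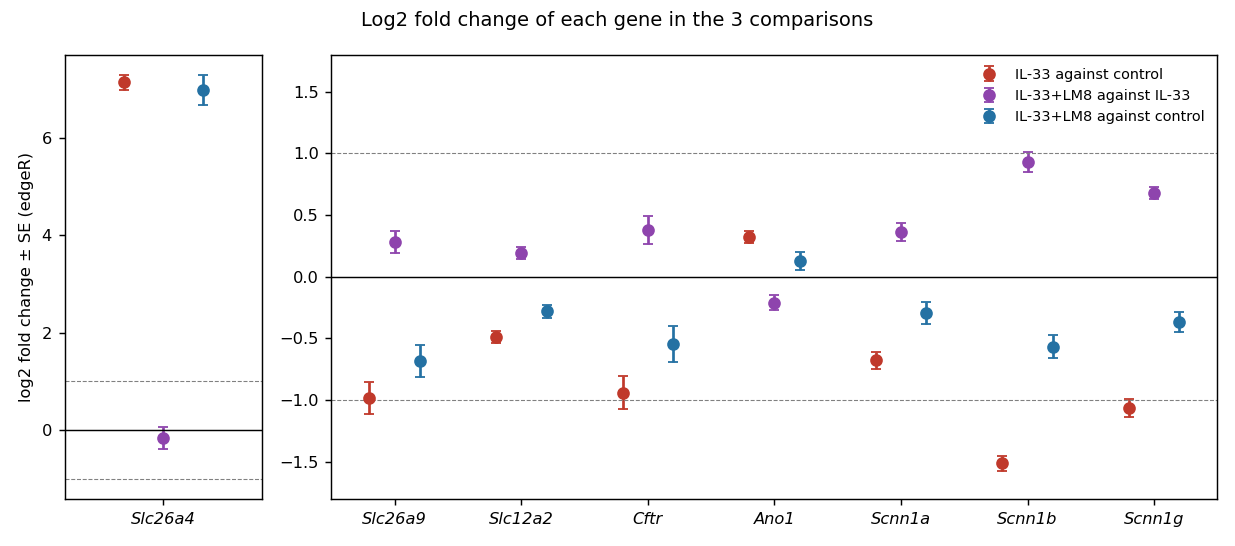
Log2 fold change from edgeR (vertical axes, a separate scale for *Slc26a4*) of the 8 tested genes in the 3 comparisons; points are estimates, bars are standard errors and dashed lines mark a 2-fold change. *Scnn1b* is at -1.51 for IL-33 over control, 0.93 for IL-33+LM8 over IL-33 and -0.57 for IL-33+LM8 over control, while *Slc26a4* is at 7.14, -0.17 and 6.99.

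Against control mice, IL-33+LM8 mice still differed in most of these genes. *Slc26a4* was higher and 6 genes were lower at an adjusted p under 0.05, where 16.3% of all genes tested rose and 13.4% fell (quasi-likelihood F test of edgeR, adjusted likewise), and only *Slc26a4* changed at least 2-fold, against 7.33% of all genes tested. The mice of both groups did not overlap for 7 of the 8 genes, which held for 47.3% of all genes tested. The log2 fold change was -0.68 for *Slc26a9*, -0.57 for *Scnn1b*, -0.54 for *Cftr*, -0.37 for *Scnn1g*, -0.30 for *Scnn1a* and -0.28 for *Slc12a2*. With single mice left out, between 4 and 7 of the 8 genes kept an adjusted p under 0.05. *Scnn1a* kept it in 1 of 6 such fits, *Cftr* in 2 of 6 and *Scnn1g* in 5 of 6, failing without IL-33+LM8 replicate 3 at 0.058. For *Ano1* the log2 fold change was 0.13 with a standard error of 0.07 (adjusted p = 0.21 by edgeR's quasi-likelihood test). The 3 comparisons share groups of mice and are therefore not independent.

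Other ion transport genes, drawn from 6 lists, moved in both directions. Of 49 such genes 40 were tested. With IL-33, 17 of the 40 (42.5%) rose and 12 (30%) fell, beside 27.4% and 27.2% of all genes tested. At least 2-fold changes were upward in 8 of the 40 (20%) and downward in 2 (5%), beside 10.8% and 6.24% of all genes tested, and the median log2 fold change was 0.03 beside -0.01. With LM8, relative to IL-33 alone, 9 (22.5%) rose and 7 (17.5%) fell, beside 12.6% and 13.9% of all genes tested. The 3 genes (7.5%) that changed at least 2-fold with LM8 all fell, where 3.93% of all genes tested fell and 1.46% rose by as much. In IL-33+LM8 mice against control mice, 12 (30%) rose and 8 (20%) fell, beside 16.3% and 13.4% of all genes tested. The 6 genes (15%) that changed at least 2-fold there all rose, where 5.87% of all genes tested rose and 1.46% fell by as much. Among the tested genes of the main set, by comparison, the median log2 fold change in IL-33 lungs was -0.81.

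**Figure D5:**
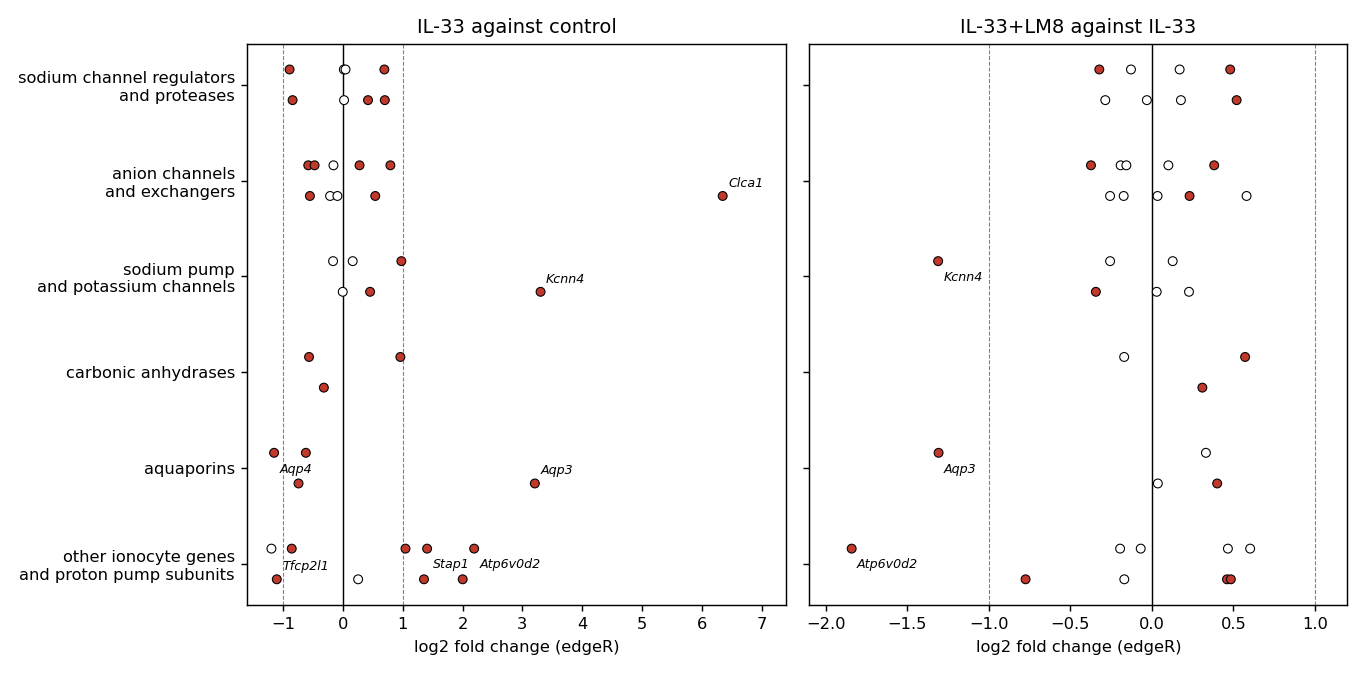
Log2 fold change from edgeR (horizontal axes) of the 40 tested genes of 6 ion transport lists (vertical axis) for IL-33 mice against control mice (left) and IL-33+LM8 mice against IL-33 mice (right); filled points have an adjusted p under 0.05 and dashed lines mark a 2-fold change. *Clca1* at 6.35 lies far to the right in IL-33 lungs, and *Kcnn4*, *Aqp3* and *Atp6v0d2* are the 3 points below a 2-fold fall with LM8.

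Among the regulators and proteases of the sodium channel 3 of 8 (37.5%) were higher and 2 of 8 (25%) lower in IL-33 lungs. Of all genes tested, 27.4% were higher and 27.2% lower. *Prss8*, which encodes the channel-activating protease prostasin, fell from 31.3 ± 2.0 to 16.8 ± 1.9 FPKM (SD, n = 3 in each group). *Nedd4l*, which encodes a ubiquitin ligase that removes the channel from the membrane, fell from 6.15 ± 0.40 to 3.42 ± 0.030 FPKM (SD, n = 3 in each group). *Furin*, which encodes a protease that cleaves the channel during its maturation, rose from 15.5 ± 0.37 to 25.1 ± 0.60 FPKM (SD, n = 3 in each group). An activator and an inhibitor of the channel thus fell alongside each other, with log2 fold changes of -0.90 for *Prss8* and -0.84 for *Nedd4l*, while that of *Furin* was 0.70. For LM8 with IL-33 over IL-33 alone the log2 fold changes were 0.48, 0.52 and -0.32 in the same order, each at an adjusted p under 0.05 in edgeR.

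Among 10 tested anion channels and exchangers, 4 (40%) rose and 3 (30%) fell in IL-33 lungs, beside 27.4% and 27.2% of all genes tested. *Clca1*, which encodes a secreted goblet cell protein that modulates the *Ano1* channel, was at 1.36, 9.40 and 4.36 FPKM in control mice and at 415, 387 and 428 FPKM in IL-33 mice. The spread among control mice was wide, and the log2 fold change was 6.35 with a standard error of 0.68 (adjusted p = 0.0002 by edgeR's quasi-likelihood test). In IL-33+LM8 mice *Clca1* was at 481, 486 and 477 FPKM, above every IL-33 mouse, and its log2 fold change against them was 0.23 (standard error 0.07, adjusted p = 0.041 by edgeR's quasi-likelihood test). *Slc9a3r1*, which encodes a scaffold protein that binds the *Cftr* channel, rose by 0.79 and *Lrrc8a*, which encodes a volume-regulated anion channel subunit, fell by 0.48 on the log2 scale with IL-33.

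Of 6 tested genes of the sodium pump and potassium channels, 3 (50%) passed the test in IL-33 lungs, all upwards. Of all genes tested, 27.4% rose. *Kcnn4*, which encodes a calcium-activated potassium channel of epithelium and leukocytes, was at 0.707, 0.770 and 1.03 FPKM in control, 8.29, 7.78 and 8.78 FPKM in IL-33 and 2.77, 3.44 and 3.79 FPKM in IL-33+LM8 mice. The 3 groups stood clearly apart, and *Kcnn4* rose by 3.30 with IL-33 (standard error 0.15) and fell by 1.31 with LM8 on the log2 scale (standard error 0.12). The leukocyte list (*Ptprc*, *Cd53*, *Laptm5* and *Coro1a*) summed to 81.4 to 90.9 FPKM in control, 315 to 331 FPKM in IL-33 and 208 to 218 FPKM in IL-33+LM8 mice, and its part in the *Kcnn4* result was not tested. *Kcne3*, a potassium channel subunit gene, rose by 0.97 on the log2 scale with IL-33.

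The carbonic anhydrases, which supply bicarbonate, differed in direction. *Car2*, which encodes a cytosolic enzyme, rose from 28.0 ± 1.1 to 54.5 ± 3.2 FPKM (SD, n = 3 in each group), while *Car4*, which encodes a membrane-bound enzyme, fell from 80.9 ± 3.4 to 54.5 ± 4.2 FPKM (SD, n = 3 in each group). *Car8*, which encodes a related protein without enzyme activity, fell by 0.32 on the log2 scale with IL-33. Of the 4 water channels, 3 (75%) fell and 1 (25%) rose, beside 27.2% and 27.4% of all genes tested. *Aqp5*, the water channel gene of alveolar type 1 cells and glands, fell from 78.9 ± 6.8 to 47.1 ± 5.2 FPKM (SD, n = 3 in each group), and was at 48.3 ± 4.8 FPKM (SD, n = 3) with LM8. *Aqp1*, the water channel gene of endothelium, fell by 0.62 and *Aqp4*, that of basolateral airway membranes, fell by 1.15 on the log2 scale with IL-33. The endothelium list (*Pecam1*, *Cdh5* and *Cldn5*) summed to 490 to 565 FPKM in control, 325 to 358 FPKM in IL-33 and 499 to 518 FPKM in IL-33+LM8 mice. With IL-33 *Pecam1* and *Cdh5* fell while *Cldn5* did not pass the test. The part of endothelium in the *Aqp1* result was not tested. *Aqp3*, which encodes a channel for water and glycerol, was at 0.326, 0.821 and 0.269 FPKM in control, 4.22, 4.90 and 4.19 FPKM in IL-33 and 1.85, 1.92 and 1.60 FPKM in IL-33+LM8 mice. It was the water channel gene that rose, by 3.21 on the log2 scale (standard error 0.42), and it fell by 1.31 with LM8 (standard error 0.15).

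Of 9 tested genes of the list of other ionocyte genes and proton pump subunits, 5 (55.6%) rose and 2 (22.2%) fell in IL-33 lungs. Of all genes tested, 27.4% rose and 27.2% fell. *Atp6v0d2*, which encodes a proton pump subunit that macrophages also make, was at 8.05, 9.49 and 10.0 FPKM in control, 43.3, 42.5 and 40.2 FPKM in IL-33 and 10.8, 13.1 and 11.2 FPKM in IL-33+LM8 mice. Its log2 fold change was 2.19 with IL-33 (standard error 0.08) and -1.84 with LM8 against IL-33 (standard error 0.09), and the LM8 mice lay above the control mice but nearer to them than to the IL-33 mice. The macrophage list (*Marco*, *Mrc1*, *Adgre1* and *Siglecf*) summed to 23.3 to 26.7 FPKM in control, 65.5 to 70.5 FPKM in IL-33 and 36.0 to 42.9 FPKM in IL-33+LM8 mice. Its genes did not move alike, since 3 rose with IL-33 while *Marco* fell. *Marco* averaged 7.41, 2.40 and 5.74 FPKM in control, IL-33 and IL-33+LM8 lungs, and *Siglecf* averaged 3.40, 7.95 and 1.93 FPKM. *Mrc1* made up 56.4% of the sum in IL-33 lungs. The part of macrophages in the *Atp6v0d2* result was not tested. *Stap1*, which encodes an adaptor of blood cells, rose by 1.41, and *Tfcp2l1*, a transcription factor gene of secretory epithelium, fell by 1.11 on the log2 scale with IL-33.

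The cytokines known to act on these genes were low in whole lung. *Il13*, the cytokine gene of type 2 inflammation, had no count in control replicates 1 and 3 and 4 counts in control replicate 2. It was at 2.24, 2.39 and 3.00 FPKM in IL-33 and at 1.04, 3.34 and 1.42 FPKM in IL-33+LM8 mice. All 6 mice given IL-33 were above the control mice, and the log2 fold change of IL-33 against control was 7.16, with a standard error of 0.82 (adjusted p = 0.00028 by edgeR's quasi-likelihood test), which rests on those 4 counts in the control group. The log2 fold change of IL-33+LM8 against IL-33 was -0.39 (standard error 0.43, adjusted p = 0.56 by edgeR's quasi-likelihood test). *Il4*, the related cytokine gene, was between 0.556 and 0.904 FPKM in control, between 0.760 and 1.12 FPKM in IL-33 and between 0.460 and 0.542 FPKM in IL-33+LM8 mice. With LM8, *Il4* fell by 0.97 on the log2 scale relative to IL-33 alone (standard error 0.27, adjusted p = 0.034 by edgeR's quasi-likelihood test), and these groups did not overlap. For IL-33 against control the log2 fold change of *Il4* was 0.49 (standard error 0.30, adjusted p = 0.20 by the same edgeR test), and those groups overlapped. *Il17a* was at most 0.184 FPKM in any mouse and *Ifng* at most 0.410 FPKM, and neither was tested.

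The genes outside the set whose pattern over the 9 mice was closest were taken by the root mean square difference of centred log2(FPKM + 1). For *Slc26a4* these were *Ccl11*, the eotaxin gene that attracts eosinophils, at a distance of 0.23, *Timp1*, a metalloproteinase inhibitor gene, at 0.53, and *Chia1*, an acidic chitinase gene, at 0.65. *Ccl11* averaged 1.69 ± 0.20 FPKM in control lungs, 101 ± 1.9 FPKM in IL-33 lungs and 108 ± 33.9 FPKM in IL-33+LM8 lungs (SD, n = 3 in each group), so that its IL-33+LM8 mice also varied most. For *Scnn1b* the closest were *Atp7b*, a copper pump gene, at 0.033, *Tspan7*, a tetraspanin gene, at 0.063, and *Ptprb*, an endothelial phosphatase gene, at 0.080. For *Scnn1g* they were *Krt80*, a keratin gene, at 0.052, *Pmp22*, a membrane protein gene, at 0.058, and *Thbd*, the thrombomodulin gene of endothelium and alveolar cells, at 0.062. *Atp7b* averaged 14.5 ± 1.1 FPKM in control lungs, 4.73 ± 0.22 FPKM in IL-33 lungs and 9.53 ± 1.2 FPKM in IL-33+LM8 lungs (SD, n = 3 in each group), the same order of groups as for *Scnn1b*.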

How the data were processed

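Lung RNA of 9 mice was read from both fragment ends by a sequencing company. In their single table, the authors deposited raw counts beside FPKM for every gene and mouse. The submitters' processing notes list HISAT2 2.0, StringTie 1.3.0, Bowtie 0.12.2 and mm10, with no role or order. The coordinates of the table differ from GRCm38, so table coordinates and GRCm38 sequence were kept apart. Depth was 53877663 to 90607218 counts per mouse, and floors of 3 counts cover counting error only.

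Groups were taken from the sample labels, which give 3 mice each. That replicates are separate mice is taken from the labels. Where they are not, p-values measure technical spread. Counts were tested with edgeR 4.0.16 (R 4.3.3, TMM, quasi-likelihood test), 1 fit per comparison of 6 mice. Genes entered if they averaged 0.5 FPKM or more across the 9 mice and had any count in those 6. P-values were adjusted by Benjamini-Hochberg over all of them. Genes are said to rise or fall at an adjusted p under 0.05. A standard error is the log2 fold change divided by the square root of the F value. Exact permutation tests used log2(FPKM + 1). Folds are ratios of mean FPKM. DESeq2 1.42.0, limma 3.58.1, other filters and scalings, a replicate block and leaving out single mice were alternatives. The fits were tested on simulated counts.

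The 10 genes, the other lists and the tests were chosen with earlier results of these data known. From each list of other genes, the text names up to 3 with the smallest p in IL-33 against control, any that changed at least 2-fold with LM8, and 4 cytokines. The 3 nearest patterns are given for the 3 genes with the largest changes. Figure labels follow the same rule. Some genes of these lists are not reported here by name. The tuft cell, ciliated cell and endothelium lists had 1, 0 and 0 tested genes higher and 0, 4 and 2 lower in IL-33 lungs, and the general epithelial list 2 higher and 1 lower.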

Additional observations from a re-analysis of the deposited data

How the results depend on the processing

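In IL-33 against control, all 8 genes kept their direction and an adjusted p under 0.05 in the 15 other settings tried for each (no filter, filterByExpr, median-of-ratios size factors, DESeq2, limma with a pseudocount of 1 or 0.1, a fit of all 9 mice, the replicate block, each of 6 mice left out, and the library with most counts left out of each group, the last chosen after seeing the data). Across the 3 comparisons, 355 of these log2 fold changes kept their direction and side of the 2-fold rule, 4 moved past it and 1 changed sign. The latter was *Slc26a4* in IL-33+LM8 against IL-33, at 0.069 without IL-33+LM8 replicate 1 and between -0.33 and 0.069 over the 6 mice left out. The number of genes changed at least 2-fold in IL-33 against control was 3, and between 3 and 5 with a mouse left out, 5 without control replicate 2, when *Slc26a9* and *Cftr* pass 2-fold. With no minimum fold change it was 8, and 6 for IL-33+LM8 over IL-33 and 7 for IL-33+LM8 over control. Of all genes tested, 54.6%, 26.5% and 29.7% passed with no minimum in the same order. By the 2-fold rule 2865 of 16831 genes tested passed in IL-33 against control, and 2895 without control replicate 2. For the other ion transport genes, the counts with no minimum were 29, 16 and 20. By the 2-fold rule, limma on log2(FPKM + 1) gave 5 of them for IL-33 over control and 3 for IL-33+LM8 over control. These stood in place of 10 and 6, on a scale that understates the folds of low genes. Among all genes tested limma on that scale gave 1741 and 588, in place of 2865 and 1233.

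Samples with the same replicate number correlated in their deviations from the group means between -0.42 and 0.67 over 9 pairs, so the numbers were not taken to pair the mice. With the replicate block, 3, 0 and 1 of the 8 genes changed at least 2-fold in the 3 comparisons, as without it. So did 10, 3 and 6 of the other genes. Among the 16831, 16831 and 16829 genes tested, 2841, 836 and 1364 did so with the block. Its adjusted p in IL-33+LM8 over IL-33 was 0.067 for *Slc12a2*, 0.097 for *Cftr* and 0.057 for *Ano1*. The libraries with the most counts in each group, control replicate 3, IL-33 replicate 1 and IL-33+LM8 replicate 3, deviated alike across genes, with correlations of 0.65 to 0.67. Without them, 4 of the 8 genes changed at least 2-fold with IL-33, beside 2845 of all 16831 genes tested. With LM8 the adjusted p of *Scnn1a* was then 0.080 by edgeR. Depth limits *Foxi1*, *Bsnd* and *Ascl3*, which rest on few counts.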
